A study of Homo sapiens with 8 samples.

Results

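The 8 genes described here encode proteins of the cell surface that are targets of antibody drugs or ligands of immune receptors. They are NECTIN4, EPCAM and F3, the checkpoint ligands CD274, CD276 and PVR, the phagocytosis signal CD47, and the hyaluronan receptor CD44. They were selected by symbol from the 27475 human genes of the deposited table, where NECTIN4 stands under its older name PVRL4, and all 8 have an entry. The RNA-seq experiment knocked down PAI-1 in UM-UC-3 and RT112, which are established human bladder cancer cell lines. Each line was transfected for 72 h with 100 pmol of pooled siRNAs, either scrambled (Scr) or directed at PAI-1 by 3 sequences (siPAI-1). The tables hold 2 libraries for each of the 4 groups. Levels are in TPM, which is scaled to gene length and to the same sum in every library, so that levels of different genes can be compared. Differences are given on the scale of log2(TPM + 0.1), with a threshold of 0.05 for p adjusted over all genes tested. Both lines were checked against marker genes. The summed TPM of 11 epithelial markers was 12294 to 12559 in the RT112 Scr libraries and 227 to 243 in the UM-UC-3 Scr libraries, while that of 11 mesenchymal markers was 244 to 252 in RT112 and 3415 to 3711 in UM-UC-3. VIM made up most of the latter, with 3142 and 2852 TPM. Of the 11 mesenchymal markers, 6 were lower in RT112 Scr by limma and 3 were higher, namely SNAI2 (log2 difference 2.10), CDH2 (0.96) and FN1 (0.79). The B cell marker MS4A1 and the T cell marker CD3D were listed at 0 in all 8 libraries. CD3E, another T cell marker, was listed at 0 in UM-UC-3 and had 0.12 to 0.20 TPM in RT112. Of 11 leukocyte markers CD68 alone reached a mean of 1 TPM, with 272.42 to 279.48 TPM in UM-UC-3 and 14.15 to 19.50 TPM in RT112. Of the RT112 libraries, siPAI-1 replicate 1 stood further from the other 3 (SD of log2 differences of 0.258 to 0.283 over 8608 genes) than these did from each other (0.22 to 0.232), and in UM-UC-3 this was Scr replicate 1 (0.288 to 0.314, against 0.255 to 0.267 among the other 3). Comparisons of the members between lines and between siRNAs are also given without these libraries.

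Nectin-4 is an adhesion molecule of epithelial cells and the target of an antibody-drug conjugate used in urothelial cancer. EpCAM is an epithelial adhesion protein whose ectodomain can be shed by proteases, and tissue factor, the product of F3, starts the extrinsic coagulation cascade. PD-L1, encoded by CD274, restrains T cells through PD-1, B7-H3 (CD276) belongs to the same B7 family, and PVR (CD155) is bound by the lymphocyte receptors TIGIT, CD96 and CD226. CD47 signals to SIRPα on macrophages and restrains phagocytosis. CD44 carries hyaluronan at the cell surface and is made in many splice isoforms, which the gene-level values used here do not separate. In bladder epithelium, EpCAM, nectin-4 and cytokeratins are part of the epithelial programme, and CD44 is known from its basal layer.

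The genes lie on 7 chromosomes in GRCh38.p14: NECTIN4 at chr1:161070998-161089558, F3 at chr1:94529173-94541759, EPCAM at chr2:47369311-47387020, CD47 at chr3:108043091-108091031, CD274 at chr9:5450542-5470554, CD44 at chr11:35139171-35232402, CD276 at chr15:73683944-73714514 and PVR at chr19:44643910-44666162. RefSeq promoter windows were used for 7 of the 8 members. Windows of 250 bases before the start site are shown for NECTIN4 and F3, which differed most between the lines apart from EPCAM, and for CD274 and PVR, which did not pass the test of that difference. They lie at chr1:161089559-161089808 (minus strand), chr1:94541760-94542009 (minus strand), chr9:5450292-5450541 (plus strand) and chr19:44643660-44643909 (plus strand). Capitals mark 4 motifs on either strand: CAGGTG, an E-box of the kind that ZEB and SNAIL repressors bind, TGAGTCA, an AP-1 element, GGGCGG, a GC box of the SP family, and a pair of GAAA separated by any 2 bases, the core of an interferon-responsive element.
NECTIN4: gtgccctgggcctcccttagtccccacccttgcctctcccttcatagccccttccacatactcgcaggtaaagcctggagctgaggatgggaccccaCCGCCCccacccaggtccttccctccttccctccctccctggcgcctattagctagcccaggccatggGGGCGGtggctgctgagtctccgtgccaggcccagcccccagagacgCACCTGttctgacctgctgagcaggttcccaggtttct
F3: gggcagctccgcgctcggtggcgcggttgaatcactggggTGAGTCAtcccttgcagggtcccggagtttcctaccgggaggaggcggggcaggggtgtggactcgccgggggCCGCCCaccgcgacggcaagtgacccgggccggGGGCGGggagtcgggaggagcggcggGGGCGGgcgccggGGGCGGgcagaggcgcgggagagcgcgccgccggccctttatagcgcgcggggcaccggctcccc
CD274: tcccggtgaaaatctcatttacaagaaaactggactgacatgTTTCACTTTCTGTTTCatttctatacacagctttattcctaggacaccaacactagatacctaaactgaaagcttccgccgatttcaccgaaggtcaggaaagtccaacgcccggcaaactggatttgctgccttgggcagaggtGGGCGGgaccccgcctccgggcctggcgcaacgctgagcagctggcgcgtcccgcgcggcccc
PVR: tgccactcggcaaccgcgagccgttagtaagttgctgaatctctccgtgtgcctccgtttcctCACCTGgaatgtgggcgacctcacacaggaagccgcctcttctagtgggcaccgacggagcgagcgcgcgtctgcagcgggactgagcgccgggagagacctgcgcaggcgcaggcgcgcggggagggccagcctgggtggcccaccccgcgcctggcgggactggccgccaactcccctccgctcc
The NECTIN4 window holds 1 CAGGTG, which 17.5% of 35116 RefSeq windows of this length also hold, and 2 GGGCGG, found in 42.6% of windows. The F3 window holds 1 TGAGTCA, found in 4.2% of windows, 4 GGGCGG and, in lower case, 1 TATAAA on the opposite strand, found in 10.7%. In the CD274 window, 2 overlapping matches of the paired GAAA lie 208 and 202 bases before the start site, and 3% of all windows have at least 1. The PVR window holds 1 CAGGTG and none of the other motifs. Base composition differs between the windows: F3 has 78% G and C with 34 CpG, PVR 70% with 27 CpG, NECTIN4 65.2% with 6 CpG and CD274 54.8% with 16 CpG, against medians of 58% and 11 CpG over all windows. These matches are descriptions of letters in a window.

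In RT112 Scr cells the order of levels was CD44, EPCAM, F3, CD276, PVR, CD47, NECTIN4 and CD274. Neighbours in this order did not overlap between the 2 libraries of each. In UM-UC-3 Scr cells the order was CD44, PVR, CD276, CD47, F3, CD274, EPCAM and NECTIN4. Here CD276 and CD47 overlapped, with 35.49 to 37.71 and 30.10 to 38.91 TPM, and so did F3 and CD274, with 2.12 to 4.72 and 3.24 to 3.45 TPM. CD44 was thus the highest member in both lines, above 98.6% and 98.8% of the genes detected in UM-UC-3 and RT112, while EPCAM was above 97.3% of the detected genes in RT112 and above 22.2% in UM-UC-3.

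**Figure D1:**
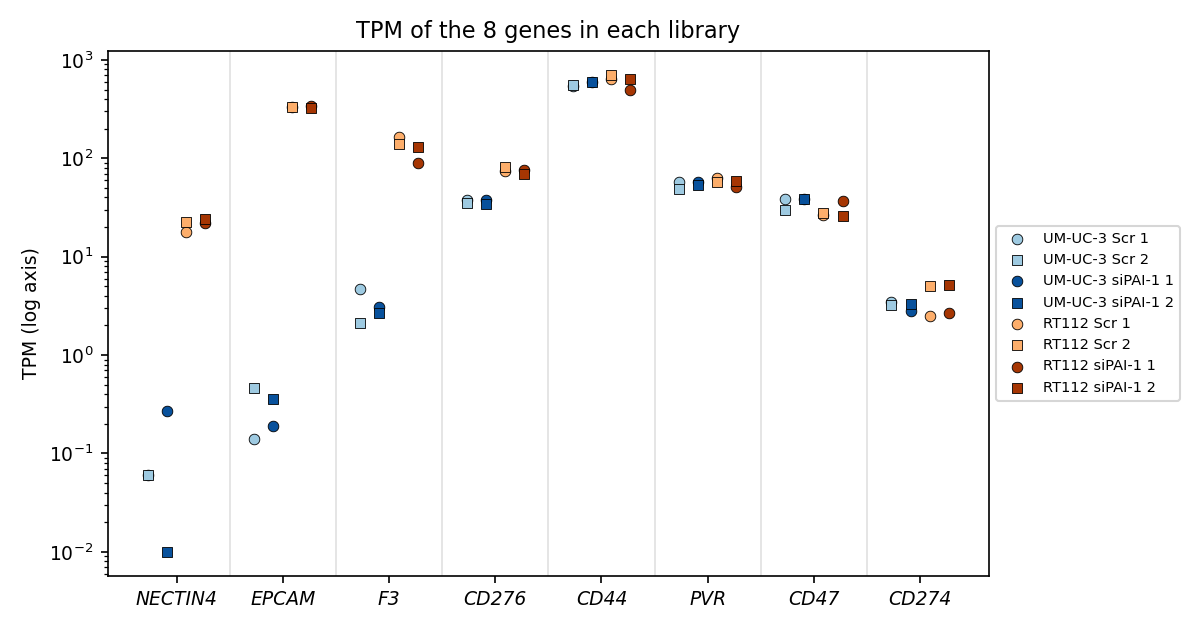
TPM of the 8 genes on a log axis in each of the 8 libraries; colours give line and siRNA, circles replicate 1 and squares replicate 2. NECTIN4, EPCAM and F3 lie apart by line, from 0.01 to 4.72 TPM in UM-UC-3 and from 17.74 to 344.23 TPM in RT112, while the 8 values of each of CD44, PVR, CD47 and CD274 lie near each other.

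The comparison of the lines asked how the members differ between RT112 and UM-UC-3 without knock-down. In the Scr libraries 5 of the 8 members differed, all 5 higher in RT112, against 51.6% of the 19201 genes tested called in either direction and 25.3% called higher. The 19201 genes include those near 0 TPM, while all 8 members averaged at least 1 TPM over these libraries. With a filter at that mean, 5 members and 8800 genes were called, in place of 5 and 9909. EPCAM and NECTIN4 pass this filter only through RT112, where they are high. How many genes the filter left is not given here, so the share called at the levels of the members is not known. EPCAM, NECTIN4 and F3 differed by 44.5-fold to 1104-fold. The immune ligands differed less, and CD274, PVR and CD47 did not pass the test. Fewer of all genes were called without RT112 Scr replicate 1 or 2. Of the members, EPCAM, NECTIN4 and CD276 kept their calls there, while F3 and CD44 lost them. Without UM-UC-3 Scr replicate 1, 4 passed (EPCAM 9.21, NECTIN4 6.97, F3 6.09 and CD276 1.15, with adjusted p from 0.0122 to 0.0444), while CD44 (0.28), PVR (0.29), CD47 (-0.15) and CD274 (0.13) did not. In bulk libraries, fewer cells with a transcript cannot be told apart from less of it per cell.
EPCAM had 331.87 and 330.47 TPM in RT112 Scr and 0.14 and 0.46 TPM in UM-UC-3 Scr. The groups did not overlap, as was the case for 72.3% of all genes tested, and the RT112 mean of 331 ± 0.99 TPM (SD, n = 2) was 1104 times that of UM-UC-3. The log2 difference was 9.82 with an SE of 0.44 (95% interval 8.60 to 11.04, limma, adjusted p = 0.000532). An estimated 5 and 15 reads lay behind the UM-UC-3 values (read estimates here assume the lower of 2 depths that fit the data and could be 2 times as large), so the fold is known less well than the direction.
NECTIN4 had 17.74 and 22.47 TPM in RT112 Scr and 0.06 TPM in both UM-UC-3 Scr libraries, where about 4 reads each were estimated. RT112 was higher in both libraries, by 6.97 with an SE of 0.26 (95% interval 6.26 to 7.68, limma, adjusted p = 0.000404). With a pseudocount of 1 TPM in place of 0.1 TPM the same difference was 4.31 and with 0.01 TPM it was 8.16, since this gene is near 0 in 1 line.
F3 had 164.05 and 140.04 TPM in RT112 Scr and 4.72 and 2.12 TPM in UM-UC-3 Scr. Both RT112 libraries lay above both UM-UC-3 libraries, in which F3 was detected with an estimated 218 and 107 reads. The ratio of means was 44.5 and the log2 difference 5.53 with an SE of 0.41 (95% interval 4.4 to 6.67, limma, adjusted p = 0.00132). Without RT112 Scr replicate 1 or 2 the adjusted p was 0.0727 and 0.0700.
CD276, the B7-H3 ligand, had 74.99 and 82.34 TPM in RT112 Scr and 37.71 and 35.49 TPM in UM-UC-3 Scr. The groups did not overlap and the difference was 1.10 with an SE of 0.08 (95% interval 0.88 to 1.32, limma, adjusted p = 0.00125), a ratio of 2.15. For CD44 the values were 647.63 and 709.66 TPM against 544.75 and 559.94 TPM. The difference was 0.30 with an SE of 0.06 (95% interval 0.13 to 0.46, limma, adjusted p = 0.0193), a ratio of 1.23. The call for CD44 was lost with FPKM in place of TPM (adjusted p = 0.0512), in 1 fit over all 8 libraries (0.0667), without the trend (0.112) and without each of the 4 libraries in turn (0.0556 to 0.188).
The other ligands did not pass. PVR had 62.39 and 57.83 TPM in RT112 and 57.16 and 48.99 TPM in UM-UC-3 (log2 difference 0.18, 95% interval -0.10 to 0.47, adjusted p = 0.224). CD47 had 26.39 and 27.68 TPM in RT112 and 38.91 and 30.10 TPM in UM-UC-3 (log2 difference -0.34, 95% interval -0.75 to 0.07, adjusted p = 0.134). The groups of both genes stand apart without overlap, and their 95% intervals include 0. CD274 was low in both lines, with 2.51 and 5.02 TPM in RT112 and 3.45 and 3.24 TPM in UM-UC-3, and the UM-UC-3 values lie between those of RT112 (0.09, 95% interval -0.98 to 1.15, adjusted p = 0.860).

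**Figure D2:**
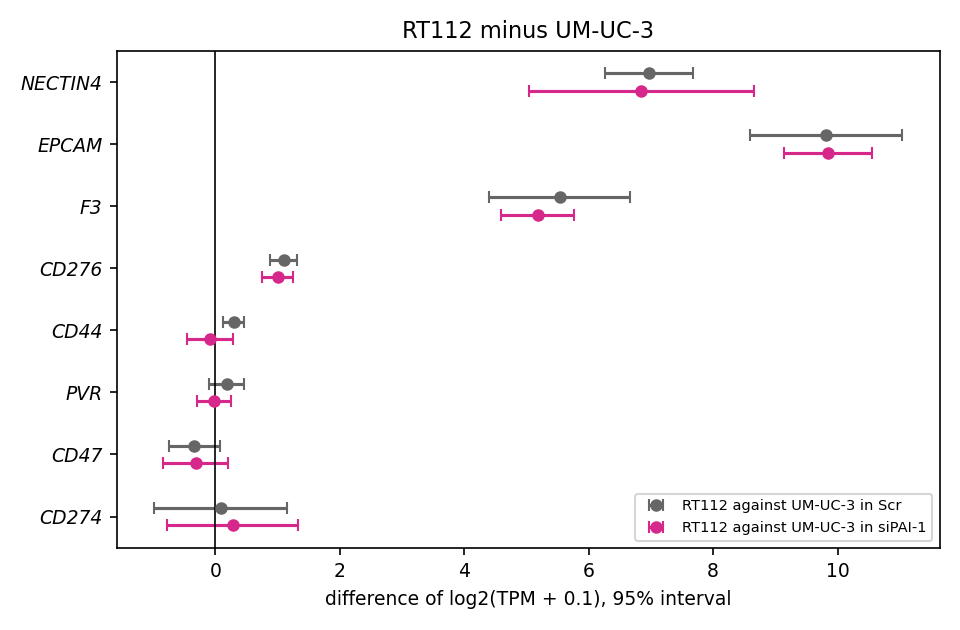
RT112 minus UM-UC-3 in the Scr libraries (grey) and in the siPAI-1 libraries (pink) for the 8 genes, as a difference of log2(TPM + 0.1) with its 95% interval. NECTIN4, EPCAM and F3 lie between 5.18 and 9.84 in both, CD276 near 1, and the intervals of PVR, CD47 and CD274 cross 0.

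The siPAI-1 libraries give the same contrast in cells that were not used above. Of the 8 members, 4 passed, all higher in RT112, against 52.2% of 19359 genes tested called in either direction and 26.2% called higher. As in Scr, the genes tested include those near 0 TPM. The log2 differences were 9.84 for EPCAM, 6.85 for NECTIN4, 5.18 for F3 and 1.00 for CD276, with adjusted p = 0.000298, 0.00252, 0.000506 and 0.00214 (limma). CD44 had 495.62 and 636.58 TPM in RT112 and 591.61 and 601.50 TPM in UM-UC-3. The groups overlap and the log2 difference was -0.09 (95% interval -0.45 to 0.28, adjusted p = 0.610). CD274 (0.28), PVR (-0.02) and CD47 (-0.31) did not pass, with adjusted p = 0.564, 0.860 and 0.249. The groups of EPCAM, NECTIN4, F3, CD276 and CD47 did not overlap, as for 73.7% of all genes. Without RT112 siPAI-1 replicate 1, EPCAM (9.81, adjusted p = 0.0264) and F3 (5.44, adjusted p = 0.0181) passed, as did CD47, lower in RT112 (-0.57, adjusted p = 0.0242), while NECTIN4 (6.91, adjusted p = 0.0888), CD276 (0.94, adjusted p = 0.0566), CD44 (0.09), PVR (0.09) and CD274 (0.75) did not.

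The knock-down was then compared with Scr within each line. limma called 0 genes in both lines at an adjusted p under 0.05, with 1114 genes at an unadjusted p under 0.05 in UM-UC-3 (6.01% of 18528) and 1063 in RT112 (5.77% of 18437). With 2 libraries per group and adjustment over all genes, this test can miss real effects, so a gene that is not called is not shown to be unchanged. The paper, with DESeq2 on counts and cutoffs on fold change and p, reports differentially expressed genes in both lines.
Among the 8 surface genes, 0 passed in either line, adjusted or unadjusted. In UM-UC-3, CD44 was the member whose groups did not overlap, as for 32.2% of all genes, with 544.75 and 559.94 TPM in Scr and 591.61 and 601.50 TPM in siPAI-1. This was a log2 difference of 0.11 (95% interval -0.01 to 0.23, unadjusted p = 0.0666, adjusted p = 0.845). CD47 had 38.91 and 30.10 TPM in Scr against 38.81 and 38.64 TPM after knock-down, a log2 difference of 0.18 (95% interval -0.17 to 0.52). PVR had 57.16 and 48.99 TPM against 57.51 and 53.73 TPM (0.07, 95% interval -0.18 to 0.32).
CD276 in UM-UC-3 had 37.71 and 35.49 TPM in Scr against 37.94 and 34.15 TPM after knock-down, and its 95% interval of -0.25 to 0.20 was the narrowest after that of CD44. For CD274, with 3.45 and 3.24 TPM against 2.81 and 3.30 TPM, the interval was -0.75 to 0.49. F3, with 4.72 and 2.12 TPM against 3.10 and 2.68 TPM, had an interval of -1.23 to 0.96. EPCAM (0.14 and 0.46 TPM against 0.19 and 0.36 TPM) had an interval of -1.52 to 1.51 and NECTIN4 (0.06 in both against 0.27 and 0.01 TPM) of -1.35 to 2.02. Without UM-UC-3 Scr replicate 1 the log2 differences were 0.43 for F3, 0.36 for CD47, 0.18 for PVR, 0.09 for CD44, 0.02 for CD276, -0.09 for CD274, -0.62 for EPCAM and 0.33 for NECTIN4, with adjusted p from 0.503 to 0.943.
In RT112, F3 and CD44 did not overlap between the groups, as for 32.7% of all genes. F3 had 164.05 and 140.04 TPM in Scr against 90.18 and 129.27 TPM after knock-down (log2 difference -0.49, 95% interval -0.998 to 0.02, unadjusted p = 0.0562, adjusted p = 0.838). CD44 had 647.63 and 709.66 TPM against 495.62 and 636.58 TPM (-0.27, 95% interval -0.62 to 0.08, unadjusted p = 0.104, adjusted p = 0.838). For both genes RT112 siPAI-1 replicate 1 was the lowest library. Without it the log2 difference was -0.23 for F3 and -0.09 for CD44, and how far it sets the values was not tested.
The other RT112 members overlapped. NECTIN4 had 17.74 and 22.47 TPM against 22.15 and 24.17 TPM (0.21, 95% interval -0.17 to 0.60) and EPCAM 331.87 and 330.47 TPM against 344.23 and 327.13 TPM (0.02, 95% interval -0.12 to 0.15), the narrowest interval in this line. CD276 with 74.99 and 82.34 TPM against 75.59 and 69.05 TPM (-0.12), PVR with 62.39 and 57.83 TPM against 50.79 and 58.96 TPM (-0.13) and CD47 with 26.39 and 27.68 TPM against 37.15 and 26.12 TPM (0.20) had adjusted p = 0.838. CD274 had 2.51 and 5.02 TPM in Scr against 2.67 and 5.19 TPM after knock-down, so that the spread within each group was wider than the difference between them (0.07, 95% interval -1.24 to 1.37). Without RT112 siPAI-1 replicate 1 the log2 differences of these 6 genes were 0.27 for NECTIN4, -0.02 for EPCAM, -0.19 for CD276, -0.03 for PVR, -0.05 for CD47 and 0.53 for CD274, with adjusted p from 0.707 to 0.926.

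**Figure D3:**
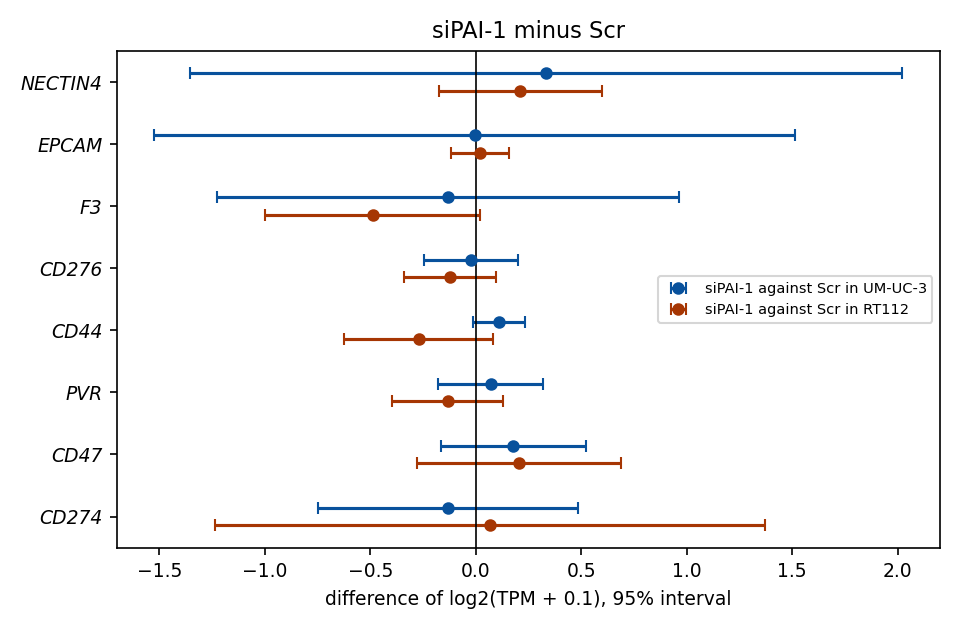
siPAI-1 minus Scr in UM-UC-3 (blue) and RT112 (red) for the 8 genes, as a difference of log2(TPM + 0.1) with its 95% interval. The intervals of all 8 genes include 0 in both lines and are widest for NECTIN4 and EPCAM in UM-UC-3.

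Whether the effect of siPAI-1 differed between the lines was tested as an interaction over 20274 genes, with 0 called and 6.76% at an unadjusted p under 0.05. For CD44 the RT112 effect minus the UM-UC-3 effect was -0.38 (limma, unadjusted p = 0.0493, adjusted p = 0.735). Without RT112 siPAI-1 replicate 1 it was -0.20 (adjusted p = 0.633) and without UM-UC-3 Scr replicate 1 -0.36 (adjusted p = 0.727). The other 7 members had adjusted p between 0.846 and 0.994.

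Partners, regulators and other targets of the same kind are 155 further genes in 9 lists, of which 150 were tested between the lines in Scr. Of these, 72 were higher and 40 lower in RT112, or 74.7% against 51.6% of all genes. Genes near 0 TPM are part of both shares, which were not matched for level. Without RT112 Scr replicate 1 or 2 fewer related genes than these 112 were called, and fewer of all genes as well. The median log2 difference of all genes was -0.06. These counts rest on the same 4 libraries as the member values. The counts of each list below likewise stand against the 51.6% of all genes called in either direction.

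**Figure D4:**
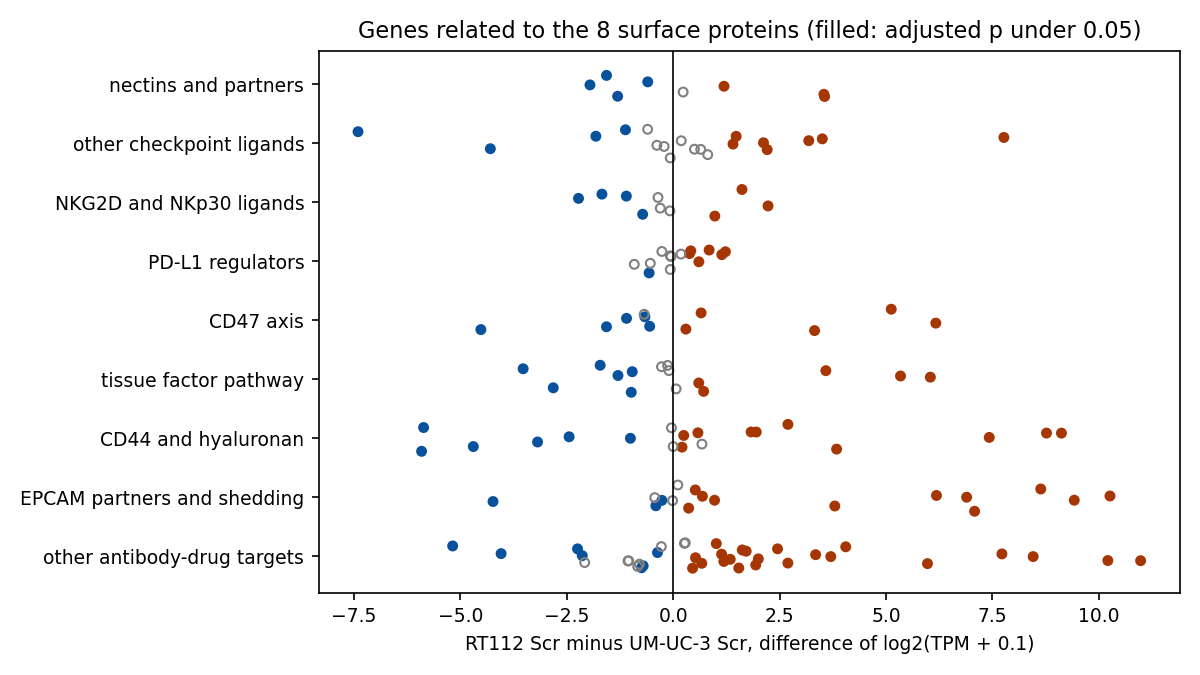
RT112 Scr minus UM-UC-3 Scr for each related gene of 9 lists, as a difference of log2(TPM + 0.1), with filled points for adjusted p under 0.05, red higher and blue lower in RT112. The other antibody-drug targets and the EPCAM partners hold more red than blue points (22 against 7 and 11 against 3). The PD-L1 regulators hold 6 red and 1 blue of 14, a share called near the 51.6% of all genes. Their called differences are at most 1.23 in size.

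In the list of other antibody-drug targets, 22 of 37 tested genes were higher and 7 lower in RT112, with a median of 1.01. FGFR3, a receptor kinase often mutated in bladder cancer, had 130.45 and 131.30 TPM in RT112 and 2.21 and 1.78 TPM in UM-UC-3 (limma, log2 difference 5.97). PTK7, a pseudokinase of Wnt signalling, was higher by 2.45, and LY6E, a GPI-anchored surface protein, by 2.69. AXL, a receptor kinase that is also 1 of the mesenchymal markers, was lower in RT112, with 30.64 and 27.13 TPM against 144.48 and 130.42 TPM (-2.25).
Genes of EPCAM partners and shedding were higher in 11 and lower in 3 of 17 (median 0.69). ST14, the protease matriptase, had 157.63 and 161.87 TPM in RT112 and 0.06 and 0.24 TPM in UM-UC-3. SPINT2, its inhibitor, had 874.39 and 863.99 TPM against 2.42 and 1.80 TPM. Of the shedding proteases, ADAM10 (0.69, adjusted p = 0.000939) and BACE2 (0.52, adjusted p = 0.00713) were higher in RT112, both named after their values were seen, and ADAM17 was lower (31.42 and 27.22 TPM against 39.83 and 37.80 TPM, -0.41).
Nectins and their partners were split, with 3 higher and 4 lower of 8 tested (median -0.18). NECTIN1, which binds nectin-4, had 163.68 and 163.27 TPM in RT112 and 14.80 and 12.87 TPM in UM-UC-3 (3.56). NECTIN3 (-1.57) and CADM1 (-1.31), another nectin-like adhesion molecule, were lower.
Of the tissue factor pathway, 5 genes were higher and 6 lower of 15 (median -0.13). TFPI2, a protease inhibitor, had 140.36 and 122.23 TPM in RT112 and 2.19 and 1.63 TPM in UM-UC-3, and THBD, which encodes thrombomodulin, had 101.61 and 83.79 TPM against 7.92 and 7.28 TPM. TFPI, the inhibitor of tissue factor, was lower in RT112, with 73.82 and 74.52 TPM against 148.48 and 140.82 TPM (-0.96), the reverse of F3.
Among checkpoint ligands other than the members, 7 were higher and 4 lower of 19 (median 0.50), a share called not far from the 51.6% of all genes. VSIR, which encodes VISTA, had 45.78 and 44.13 TPM in RT112 and 5.38 and 4.38 TPM in UM-UC-3, and LGALS3, a LAG-3 ligand, 205.64 and 201.82 TPM against 16.43 and 19.46 TPM. CD40, a co-stimulatory receptor, was lower in RT112, with 43.75 and 34.71 TPM in UM-UC-3 against 0.03 and 0.31 TPM in RT112, and CD70, a ligand of CD27, had 24.17 and 18.40 TPM against 0.75 and 1.27 TPM.
NKG2D and NKp30 ligands had 3 higher and 4 lower of 10 (median -0.33), with MICA lower (14.52 and 13.35 TPM against 43.96 and 45.36 TPM) and MICB higher (21.47 and 20.37 TPM against 10.80 and 10.34 TPM) in RT112. In the list of PD-L1 regulators, 6 were higher and 1 lower of 14 (median 0.07), a share called near the 51.6% of all genes. IRF1, a transcription factor of interferon response, was higher by 1.23 and CMTM4, which stabilises PD-L1, by 1.14, while CD274 itself did not pass the test.
Of the CD47 axis, 5 were higher and 5 lower of 11 (median -0.55). The CD47 ligand THBS1 had 299.34 and 293.09 TPM in RT112 and 3.32 and 4.86 TPM in UM-UC-3, and CD24, another signal to macrophages, 537.71 and 494.20 TPM against 13.90 and 15.55 TPM. SIRPA, the receptor of CD47, was lower in RT112 (-1.57). For CD44 and hyaluronan, 10 were higher and 6 lower of 19 (median 0.25). EZR, which links CD44 to actin, had 735.20 and 721.89 TPM in RT112 and 186.40 and 190.21 TPM in UM-UC-3, and MSN, of the same family, had 5.06 and 6.02 TPM against 340.68 and 335.11 TPM. The osteopontin gene SPP1 was listed at 0 in both UM-UC-3 Scr libraries and had 39.88 and 47.50 TPM in RT112.

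With siPAI-1, 0 of 142 related genes tested in UM-UC-3 and 0 of 147 in RT112 passed, and 7 and 10 had an unadjusted p under 0.05, against 6.01% and 5.77% of all genes. In UM-UC-3 the smallest p belonged to EGFR (35.99 and 35.14 TPM against 43.44 and 41.95 TPM, log2 difference 0.26, unadjusted p = 0.0118, adjusted p = 0.791), TFRC and LRP1, a scavenger receptor. LRP1 was also among the smallest in RT112 (27.37 and 27.02 TPM against 33.24 and 35.98 TPM, 0.35, unadjusted p = 0.0103), where MET, a receptor kinase, had the smallest (77.68 and 76.33 TPM against 58.39 and 60.17 TPM, -0.38, unadjusted p = 0.00194, adjusted p = 0.838). FGFR3 in RT112 had 130.45 and 131.30 TPM against 195.37 and 154.14 TPM (0.41, unadjusted p = 0.0237). Without RT112 siPAI-1 replicate 1 the log2 differences were 0.24 for FGFR3, 0.40 for LRP1 and -0.36 for MET, and 0 of the 147 related genes passed. Without UM-UC-3 Scr replicate 1, EGFR stood at 0.28, TFRC at 0.18 and LRP1 at 0.27, and 0 of 141 passed.

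The genes with the most similar pattern over the 8 libraries were sought among 12803 genes that averaged 1 TPM or more, by the root mean square difference of centred log2 values. For EPCAM these were KRT4 (0.211) and PTGES (0.265), and for NECTIN4 PSD4 (0.245) and SCEL (0.29). For F3 they were KRT80 (0.219) and PLCL2 (0.234). The smallest values were those of CD44, matched by BPGM (0.046) and DCAF16 (0.0588), PVR by SNAPC1 (0.0476) and RAP2B (0.0479), CD276 by HN1L (0.0517) and TXNDC11 (0.0569), and CD47 by HK2 (0.0753) and PCCB (0.0824). The measure is not scaled to how far a gene varies. Genes that vary little can thus lie near each other without a shared pattern. CD274 was nearest to CHD7 (0.198) and SCAI (0.213), where its replicate spread enters the measure.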

How the data were processed

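RNA was measured in 8 libraries of UM-UC-3 and RT112 cells, grouped by the line, siRNA and replicate in their labels. According to the paper's methods, the authors trimmed single reads of 75 bases from a stranded mRNA kit, aligned them with STAR to hg38, counted them with featureCounts and tested them with DESeq2. The submitters' processing notes name STAR 2.5.0 and RSEM 1.2.25, so which program gave the values is unclear. The deposited TPM values are scaled to gene length and library sum. The deposited FPKM values correct for length and for the reads of a library, and served here as an alternative and to estimate depth. Both are rounded to 2 decimals. No count table was used, so the test was on the log scale. The depth, found from the step of 1 read in FPKM, was 29.2 to 34.2 M reads per library. A depth 2 times as large gives whole reads as well, so reads per gene, which use the lower depth and the longest transcript, could be 2 times as large, and would be smaller for a shorter transcript.

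Of 27567 entries, 92 spike-ins at 0 were left out. Differences were tested with limma 3.58.1 under R 4.3.3 (two-sided, eBayes with trend) on log2(TPM + 0.1). Each fit took the 4 libraries of its comparison, and the interaction took all 8. P-values were adjusted by Benjamini-Hochberg over genes detected in any library fitted, and they measure the spread between libraries, which may be technical. On this scale the folds of low genes are understated. The test was also run on simulated reads of genes above 1 TPM, few of which were changed. That setting is unlike the line contrast, and its outcome is not used here. The members and lists were chosen with earlier results of these data known. Named are all members, up to 3 genes per direction and list by smallest p among called genes that averaged 1 TPM or more (some are given by count only), the 3 smallest p per line for the knock-down, and the 2 nearest patterns per member. The level of the targeted gene and some other genes covered by this rule are not reported here. Of ICOSLG, listed under 2 identifiers, the higher entry was kept. CEACAM19 overlaps PVR by 303 bases and had 0.51 to 3.42 TPM, and use of strand in counting is not given in the sources used here. Alternatives were other pseudocounts, FPKM, median ratio rescaling, a filter at a mean of 1 TPM, 1 fit over 8 libraries, a replicate block, no trend, and leaving out each library. Replicates of the same number showed little shared deviation between groups (correlations between -0.043 and 0.098 over 12803 genes). Whether they were handled together is not given in the labels, and these correlations cannot decide it. Promoter windows came from a table of RefSeq sequences (GRCh38.p14). Summaries used Python 3.11.15 with pandas 2.3.3.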

Additional observations from a re-analysis of the deposited data

How the results depend on the processing

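Of 502 recomputed member differences, 453 kept their direction and side of the threshold, and of 99 recomputed counts of called genes 95 stayed within 1.5 times the count reported. The 4 counts that moved were all between the lines in Scr, without RT112 Scr replicate 1 or 2. Both knock-down comparisons and the interaction called 0 genes with all libraries. A count or difference that stays uncalled there says little about stability. Leaving out each library in turn gave 3 to 4 called members in place of 5 between the lines in Scr, and 69 to 90 related genes in place of 112, and here the lone library is assumed to vary like the other group. With the replicate block the members called were 5 between the lines in Scr, 4 in siPAI-1 and 0 in both knock-down comparisons and the interaction, and the block changed no call of these counts. The rescaling by the median ratio turned PVR between the lines in siPAI-1 to 0.006, and a pseudocount of 0.01 TPM turned EPCAM in UM-UC-3 to 0.035. The interaction of NECTIN4 turned to 0.107 with a pseudocount of 1 TPM and 0.116 with 0.01 TPM, and that of EPCAM to -0.016 with 0.01 TPM. The cause was not tested.

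None of the following members passed the test with all libraries, and leaving out 1 library turned their sign. Between the lines the log2 difference ranged from -0.4 to 0.572 for CD274 in Scr and, in siPAI-1, from -0.13 to 0.085 for PVR, -0.267 to 0.094 for CD44 and -0.183 to 0.75 for CD274. For siPAI-1 in UM-UC-3 the ranges were -0.617 to 0.606 for EPCAM, -0.692 to 0.426 for F3, -0.099 to 0.052 for CD276, -0.04 to 0.182 for PVR, -0.007 to 0.362 for CD47 and -0.541 to 1.209 for NECTIN4. In RT112 they were -0.42 to 0.553 for CD274, -0.018 to 0.056 for EPCAM and -0.049 to 0.457 for CD47. For the interaction they were -0.998 to 0.752 for NECTIN4, -0.587 to 0.636 for EPCAM, -0.227 to 0.28 for CD47, -0.915 to 0.204 for F3 and -0.289 to 0.683 for CD274. In siPAI-1, CD47 was lower in RT112 without RT112 siPAI-1 replicate 1 (-0.57, adjusted p = 0.0242) and CD44 without replicate 2 (-0.27, adjusted p = 0.0395). NECTIN4 lost its call there without either RT112 siPAI-1 library (adjusted p = 0.0888 and 0.0914), and CD276 without 3 of the 4 libraries (0.0502 to 0.0566). With the filter at 1 TPM, EPCAM and NECTIN4 have no value in UM-UC-3. EPCAM and NECTIN4 in UM-UC-3 rest on an estimated 1 to 22 reads, which limits their folds.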

Other observations

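The low epithelial transcripts of UM-UC-3 were not even between its libraries. In Scr replicate 1, 5 of 11 epithelial markers (CDH1, GRHL2, ELF3, OVOL1 and RAB25) were listed at 0, while in the other 3 UM-UC-3 libraries 0 of 11 were. EPCAM was also lowest there, at 0.0423% of its RT112 Scr mean, against 0.139% in Scr replicate 2 and 0.0574% and 0.109% after knock-down. KRT19 stood at 0.0181%, 0.097%, 0.0771% and 0.101% in the same order. KRT7 was also lowest in Scr replicate 1, at 0.1911% against 0.25%, 0.2457% and 0.2615%. Other genes did not follow this order, among them KRT8 (1.27% against 1.45%, 1.21% and 1.64%). NECTIN4 had 0.298% in both controls and 1.34% and 0.0497% after knock-down, F3 was highest in Scr replicate 1 (3.10% against 1.39%, 2.04% and 1.76%), and PPARG (5.12% against 4.17%, 5.57% and 4.46%), GATA3 (0.90% against 1.29%, 0.647% and 0.825%) and KRT18 (8.81% against 9.15%, 8.56% and 8.23%) were not lowest there. The source of these traces was not tested.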
